A study of Mus musculus with 6 samples.

Results

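Chemokines and their receptors were examined at the tick bite site in bitten ear skin of mice that had or lacked an intact gene for adiponectin, a circulating protein made by fat cells. The members were all genes of the table whose symbol begins with Ccl, Ccr, Cxcl, Cxcr, Cx3cl, Cx3cr, Xcl, Xcr or Ackr followed directly by a digit. This rule took 53 of 15667 genes: 34 ligands, 15 signalling receptors and 4 atypical receptors. Ccl5, a ligand on the qPCR panel of the study, was not analysed here.

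RNA-seq libraries came from female littermates that were wild-type (WT, Adipo+/+, n = 3) or homozygous for a targeted null allele of the adiponectin gene Adipoq (KO, Adipo-/-, n = 3; strain B6;129-Adipoq tm1Chan/J). The mice were 7 to 8 weeks old. Each carried 10 Ixodes scapularis nymphs, and a 3.5 mm punch of bitten ear was taken after 48 h, so all 6 libraries come from bitten skin and none from unbitten skin. Each library was 1 mouse according to the methods of the study.

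Chemokines are small secreted proteins that bind G protein-coupled receptors on leukocytes and guide them along a gradient. The families are named for the spacing of cysteines near the start of the protein (CC, CXC, CX3C and XC). Homeostatic members such as Cxcl12 and Ccl21a place cells in resting tissue, inflammatory members such as Cxcl2 and Ccl2 draw neutrophils and monocytes to a wound or bite, and atypical receptors bind chemokines without G protein signalling and remove or redistribute them.

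Expression is given in CPM, the reads of a gene per 1000000 reads of its library. The depth implied by the values ran from 4131361 to 6065618 reads for WT and from 3403706 to 6591523 reads for KO, and 3 reads corresponded to 0.455 to 0.881 CPM. Adipoq stood at 30.5, 63.7 and 49.6 CPM in WT replicates 1, 2 and 3 and at 0, 0.560 and 0 CPM in KO replicates 1, 2 and 3, so the targeted gene matched the labels. Keratinocyte markers, 6 of the 7 listed, summed to 20937 to 39491 CPM over the 6 libraries. Hair follicle markers (8 of 8) set the libraries apart, with summed levels of 11.1, 14.6 and 21752 CPM in WT replicates 1, 2 and 3 and 1761, 8746 and 905 CPM in KO replicates 1, 2 and 3. In such bulk tissue fewer cells of a type and less RNA per cell cannot be told apart.

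Of the 53 members, 40 reached a mean of 1 CPM and were tested with limma on log2(CPM + 0.5) within a fit of all 14306 such genes. Of these 40, Ccl4 and Cxcl3 reached that mean only through their WT libraries. At an adjusted p below 0.05 no member was called, against 2 of all genes tested (0.014%). Limma voom on reads recovered from the CPM steps also called none. It did not call Adipoq either (log2 fold change -7.88; limma voom, adjusted p = 0.488), so its lack of calls is no support. In the fit on log2(CPM + 0.5) the adjusted p of the 40 members lay between 0.998 and 0.999. At an unadjusted p below 0.05, 3 members were counted. Cxcr4 and Ackr3, both receptors of Cxcl12, were lower in KO skin, and Ccl22, a ligand of Ccr4, was higher. Over all genes tested the background was 2.88% in either direction, 1.82% lower and 1.06% higher, and the 2 lower and 1 higher of 40 members are too few to be set apart from it. All 3 genes, together with Ccr9, are also in the gene listing that the study made from these same libraries, so their direction here is no independent evidence.

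The median log2 fold change (KO against WT) was -0.06 over the 40 members and -0.03 over all genes. Of the members, 23 had a negative and 17 a positive value. The 27 tested ligands had a median of -0.11 and the 13 tested receptors a median of 0.32. The receptor median was the value of Ccr2 (95% interval -0.62 to 1.27), which was -0.12 without WT replicate 3. KO values lay wholly on one side of the WT values for 4 members (Cxcr4 lower, and Ccl22, Cxcr6 and Cx3cr1 higher), beside 7.84% of all genes. The spread between libraries of a genotype was wide for these genes. The median SD on the log2 scale was 0.62 within WT and 0.58 within KO, against 0.23 and 0.22 over all genes, and the median standard error of a fold change was 0.41 against 0.21.

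**Figure D1:**
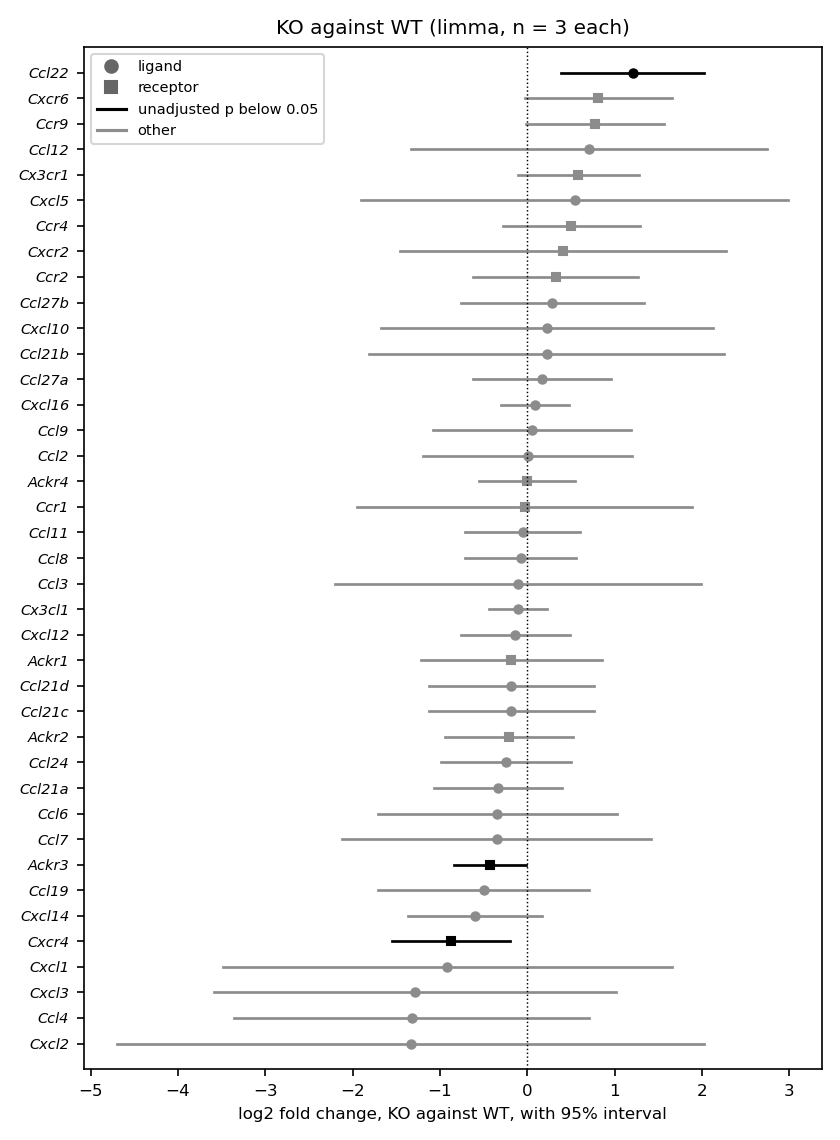
Log2 fold change of KO against WT for 39 of the 40 members tested (x axis), with its 95% interval from limma and 1 row per gene (circles ligands, squares receptors, black for an unadjusted p below 0.05). The intervals of Ccl22, Cxcr4 and Ackr3 lie off 0, and those of Cxcl2, Cxcl1, Cxcl3 and Cxcl5 are among the widest.

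Among the homeostatic or dual CC ligands (8 of 11 tested), Ccl22 was the member that differed. Ccl22 is made by dendritic cells and macrophages and attracts T cells that carry Ccr4. The gene (chromosome 8, 94745684 to 94751388, plus strand, GRCm38) stood at 3.39, 3.87 and 5.94 CPM in WT replicates 1, 2 and 3 and at 12.4, 6.45 and 14.4 CPM in KO replicates 1, 2 and 3. Every KO library was above every WT library, although KO replicate 2 lay close to WT replicate 3. Mean levels were 4.40 ± 1.35 CPM (SD, n = 3) in WT and 11.1 ± 4.14 CPM (SD, n = 3) in KO skin. On the log2 scale KO was 1.21 above WT (SE 0.35, 95% interval 0.39 to 2.02; limma, adjusted p = 0.998). Over 15 alternative settings it ranged from 0.99 to 1.54, with an unadjusted p below 0.05 in all 15. Ccl22 had 14 to 36 reads per WT library and 23 to 82 reads per KO library.

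Ccr4, the receptor of Ccl22, stood at 9.92, 24.2 and 15.2 CPM in WT replicates 1, 2 and 3 and at 16.8, 21.3 and 30.0 CPM in KO replicates 1, 2 and 3. The groups overlapped, and the log2 fold change of 0.50 had an interval of -0.28 to 1.29. Ccl17, the other Ccr4 ligand, was below the filter, with 0 to 0.659 CPM in WT and 0.294 to 1.96 CPM in KO libraries. Langerhans and dendritic cell markers (9 of 9 had values, Xcr1 among them) summed to 290 to 362 CPM in WT and 307 to 322 CPM in KO libraries. Most of that sum was H2-Ab1 and Epcam, with means of 153 and 128 CPM over the 6 libraries. The other tested markers had log2 fold changes of -0.79 (Cd209a), -0.79 (Zbtb46), -0.21 (Flt3), 0.27 (Cd207) and 0.16 (Itgax). None of the 7 tested was at an unadjusted p below 0.05. T cell markers (5 of 8) summed to 22.9 to 26.9 CPM in WT and 17.6 to 26.3 CPM in KO libraries, again with none of the 5 tested at that level. Trac, Trdc and Cd8a were not analysed here. The part of either cell type in the Ccl22 difference was not tested.

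The other homeostatic CC ligands had intervals that included 0. Ccl21a, which guides dendritic cells and T cells through Ccr7, was within 18.2 to 21.9 CPM in WT but 10.2 to 26.4 CPM in KO libraries, for a log2 fold change of -0.34 (95% interval -1.07 to 0.39). Without KO replicate 3, the highest of the 6, the value was -0.69 with an unadjusted p below 0.05, and without KO replicate 1, the lowest, it was -0.03. Ccl27a, a keratinocyte ligand of Ccr10, was within 8.42 to 20.5 CPM in WT and 11.9 to 20.7 CPM in KO libraries. Ccl19 had a log2 fold change of -0.50 on 3 to 12 reads a library.

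Near-identical copies make some of these levels uncertain. Ccl21c and Ccl21d had the same value in every library. Of the 50-base words in the annotated exons of Ccl21b, 71.7% also occur in Ccl21a, and of those in Ccl27b 61.4% occur in Ccl27a. Between Cxcl2 and Cxcl3 the share is small, with 5.84% of the words of Cxcl2 found in Cxcl3. The authors' quantification could divide reads among such copies, and Ccl21b ranged from 0.0384 to 4.44 CPM in WT libraries.

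The inflammatory CC ligands (10 of 11 tested) had no member at an unadjusted p below 0.05. Of the 10 values, 7 were negative and 3 positive, with a median of -0.09 on the log2 scale. Summed over all 11, they came to 243, 300.3 and 85.7 CPM in WT replicates 1, 2 and 3 and 151, 254 and 110 CPM in KO replicates 1, 2 and 3. WT replicate 3 was the lowest WT library for 8 of the 10, and KO replicate 3 the lowest KO library for 6. The libraries of a genotype thus differed more from each other than the genotypes did.

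Ccl6, a mouse ligand of Ccr1, stood at 92.9, 148 and 30.5 CPM in WT replicates 1, 2 and 3 and at 53.7, 108 and 35.3 CPM in KO replicates 1, 2 and 3. WT replicate 3 was the lowest of the 6 libraries and WT replicate 2 the highest. The log2 fold change was -0.34 (95% interval -1.71 to 1.02), and with WT replicate 3 left out it was -0.99 with an unadjusted p below 0.05. Without WT replicate 2 it was 0.14 and without KO replicate 3 it was 0.021, so the sign turned. Ccl9, another Ccr1 ligand and a neighbour of Ccl6 on chromosome 11, was at 57.6, 75.9 and 20.1 CPM in WT replicates 1, 2 and 3 and at 42.2, 73.1 and 32.0 CPM in KO replicates 1, 2 and 3. The same libraries were high and low, and the log2 fold change was 0.05 (-1.08 to 1.19).

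Ccl8, a ligand of Ccr8 in mice, was at 15.7, 30.1 and 14.7 CPM in WT replicates 1, 2 and 3 and at 16.4, 19.3 and 18.8 CPM in KO replicates 1, 2 and 3. All 3 KO libraries lay inside the WT range, with a log2 fold change of -0.07 (-0.71 to 0.56). Ccl3, a ligand of Ccr1 on the qPCR panel of the study, was at 7.02, 1.22 and 0 CPM in WT replicates 1, 2 and 3 and at 0.759, 1.12 and 2.06 CPM in KO replicates 1, 2 and 3. WT replicate 1 held 29 reads of Ccl3 and WT replicate 3 none. With a floor of 3 reads put in place of 0, the ratio of these libraries per depth was 14.2. Without that floor its exact 95% lower limit was 10.8. The log2 fold change of Ccl3 was -0.10 (-2.20 to 1.99).

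The monocyte-attracting ligands of Ccr2 were likewise spread. Ccl2 ranged from 4.95 to 19.1 CPM in WT and 5.88 to 15.1 CPM in KO libraries (log2 fold change 0.00, 95% interval -1.19 to 1.20). Ccl7 ranged from 3.63 to 28.6 CPM in WT and 3.53 to 16.3 CPM in KO libraries (-0.35, -2.12 to 1.42). The eosinophil-attracting Ccl11 was at 7.75 to 13.2 CPM in WT and 7.89 to 13.2 CPM in KO libraries. Ccl4, an inflammatory CC ligand, reached 5.57 CPM in WT replicate 1 and at most 0.280 CPM in KO libraries, which is 1 read. Its log2 fold change was -1.32 (-3.36 to 0.71). Without WT replicate 1 it fell under the filter and was not tested.

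**Figure D2:**
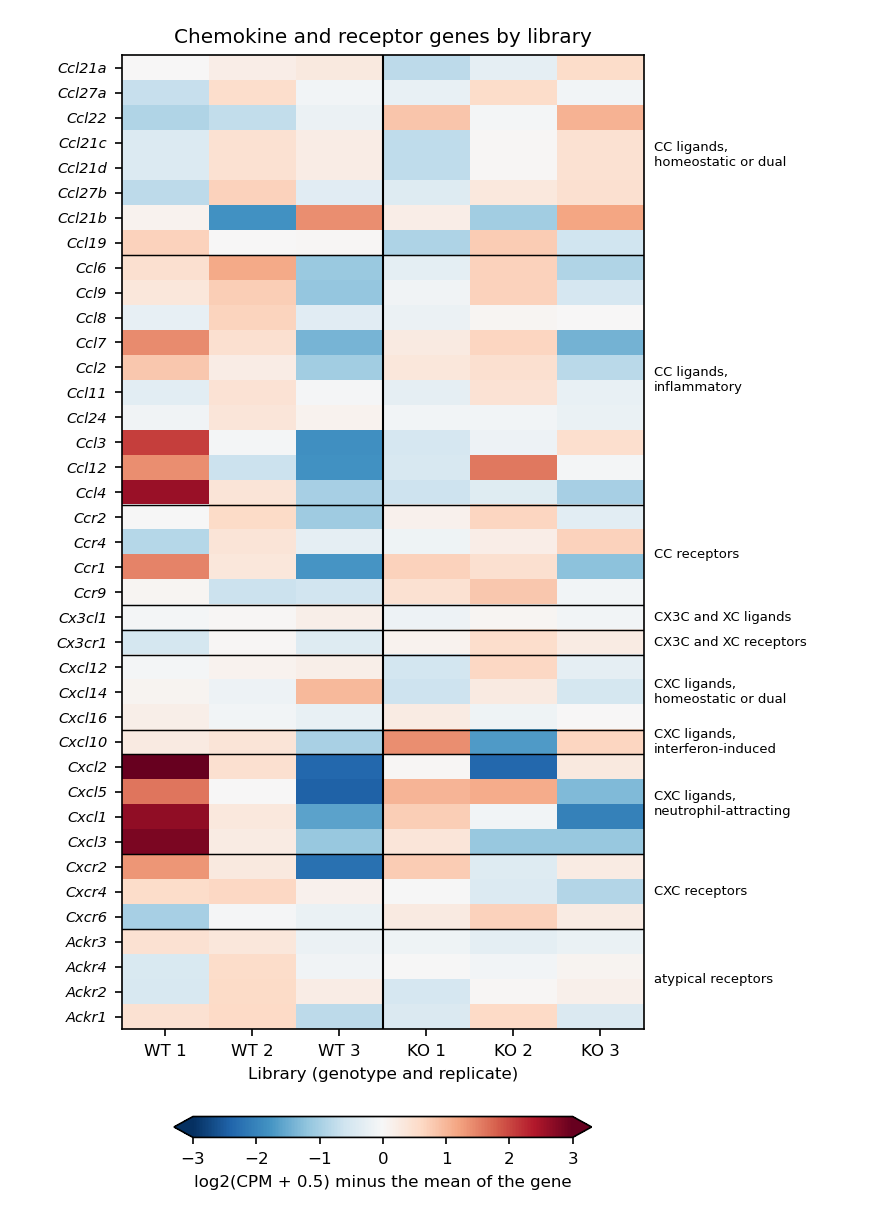
Heat map of log2(CPM + 0.5) minus the mean of the gene (colour, blue below and red above) for 39 of the 40 members tested (rows, by family and role) in each library (columns). WT 1 is red and WT 3 blue for Cxcl1, Cxcl2, Cxcl3, Cxcl5, Ccl3 and Ccl4, while Cx3cl1 and Cxcl16 are pale throughout.

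The neutrophil-attracting CXC ligands Cxcl1, Cxcl2, Cxcl3 and Cxcl5, all ligands of Cxcr2, were the members with the largest ratio of highest to lowest WT library on the log2(CPM + 0.5) scale. All 4 were highest in WT replicate 1, and 3 were lowest in WT replicate 3, ties included. Summed, they came to 64.1, 8.14 and 0.165 CPM in WT replicates 1, 2 and 3 and 10.9, 6.73 and 3.23 CPM in KO replicates 1, 2 and 3. Each KO library lay between WT replicates 1 and 3.

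Cxcl2 was at 36.8, 3.05 and 0 CPM in WT replicates 1, 2 and 3 and at 2.12, 0 and 2.64 CPM in KO replicates 1, 2 and 3. WT replicate 1 held 152 reads against 15 in WT replicate 2, a ratio of 12.1 per depth (exact 95% interval 7.08 to 22.1, for counting error only). Against WT replicate 3, with 0 reads, the ratio was 74.4 when the floor of 3 reads was put in place of 0. Without that floor its exact 95% lower limit was 59.8. The genotypes overlapped, with a log2 fold change of -1.33 (95% interval -4.69 to 2.02). Without WT replicate 3 this was -2.84 with an unadjusted p below 0.05, and without WT replicate 1 it was 0.27.

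Cxcl1 was at 12.3, 2.03 and 0.165 CPM in WT replicates 1, 2 and 3 and at 2.88, 1.40 and 0 CPM in KO replicates 1, 2 and 3, with a log2 fold change of -0.92 (-3.48 to 1.65). Cxcl3 was at 7.26, 0.814 and 0 CPM in WT replicates 1, 2 and 3 and at 0.910, 0 and 0 CPM in KO replicates 1, 2 and 3, with a log2 fold change of -1.28 (-3.59 to 1.02). Without WT replicate 1 Cxcl3 fell under the filter and was not tested. Cxcl5 was at 7.75, 2.24 and 0 CPM in WT replicates 1, 2 and 3 and at 5.01, 5.32 and 0.588 CPM in KO replicates 1, 2 and 3, with a log2 fold change of 0.54 (-1.90 to 2.99). In each of these genes WT replicate 1 was the highest library and the groups overlapped.

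The promoters of Cxcl1, Cxcl2 and Cxcl3 are shown because these neighbours on chromosome 5 were all highest in the same library. Each line gives the 130 bases before the gene start (RefSeq, GRCm38.p6, plus strand, 5′ to 3′). Capitals mark matches on either strand to TATAAA and to the kappaB motif, which NF-kappaB proteins bind and which was searched as GGG, any 2 bases, then TTTCC.
Cxcl1, chr5:90891115-90891244: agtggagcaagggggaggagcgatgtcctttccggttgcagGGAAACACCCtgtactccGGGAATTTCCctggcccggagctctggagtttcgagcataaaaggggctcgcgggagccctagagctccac
Cxcl2, chr5:90903769-90903898: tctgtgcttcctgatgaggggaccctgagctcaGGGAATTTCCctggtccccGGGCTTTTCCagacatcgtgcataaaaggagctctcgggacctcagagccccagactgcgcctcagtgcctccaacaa
Cxcl3, chr5:90785971-90786100: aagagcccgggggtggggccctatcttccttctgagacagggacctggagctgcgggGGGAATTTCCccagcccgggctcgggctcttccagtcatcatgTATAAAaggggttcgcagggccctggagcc

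The 10 letters GGGAATTTCC stand in all 3 windows, with their first base at -71 in Cxcl1, -97 in Cxcl2 and -73 in Cxcl3, where -1 is the base before the gene start. Cxcl2 holds a second match, GGGCTTTTCC, at -78, and Cxcl1 one on the minus strand, GGAAACACCC, at -89. TATAAA was found in Cxcl3 alone of the 3, at -30, and overlaps no other match. RefSeq windows of 300 bases (250 before the gene start and 50 from it on) were matched for 42 of the 53 members, as 48 windows. Of these 48, 6 held the kappaB motif (Ccl20, Ccl9, Ccr3, Cxcl1, Cxcl2 and Cxcl3), against 535 of 32851 windows of all genes (1.63%). TATAAA was in 13 of the 48 and in 13.6% of all windows. A match describes the letters only. No window was matched for Cxcl5 or Ccl4.

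Cxcr2, the receptor of these ligands, marks neutrophils. It stood at 50.3, 24.4 and 3.79 CPM in WT replicates 1, 2 and 3 and at 33.7, 14.9 and 23.5 CPM in KO replicates 1, 2 and 3. WT replicates 1 and 3 were the highest and the lowest of the 6, and WT replicate 1 held 13.3 times the level of WT replicate 3 (exact 95% interval 8.61 to 21.4). KO differed from WT by 0.40 on the log2 scale (95% interval -1.46 to 2.27).

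Neutrophil markers followed the same order among WT libraries. Of 13 listed markers 7 had values, and they summed to 509, 177 and 28.0 CPM in WT replicates 1, 2 and 3 and to 161, 71.7 and 67.0 CPM in KO replicates 1, 2 and 3. S100a9, the most abundant of them by mean, was at 273, 69.2 and 4.62 CPM in WT replicates 1, 2 and 3 and at 80.4, 24.7 and 20.3 CPM in KO replicates 1, 2 and 3. Ly6g, Mpo, Elane, Ngp, Camp and Ltf were not analysed here. No neutrophil marker of the 6 tested was at an unadjusted p below 0.05, and their median log2 fold change was -0.48. Whether neutrophil number set the levels of the Cxcr2 ligands was not tested.

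**Figure D3:**
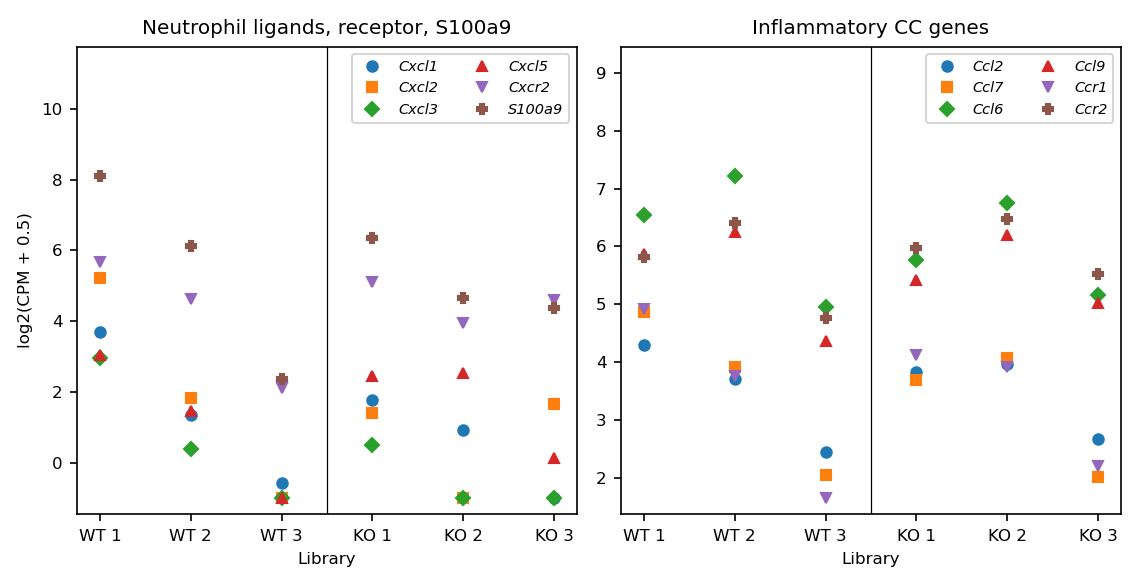
Log2(CPM + 0.5) in each library (x axis) of the Cxcr2 ligands, Cxcr2 and the neutrophil marker S100a9 (left), and of inflammatory CC ligands with the receptors Ccr1 and Ccr2 (right). In the left panel WT 1 is highest and WT 3 lowest or tied for lowest among WT libraries for every gene, and points at -1 are libraries with 0 CPM.

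The homeostatic or dual CXC ligands (3 of 4 tested) included the member of highest mean CPM, Cxcl12. Cxcl12, the ligand of Cxcr4 and Ackr3, was at 100.5, 112 and 118 CPM in WT replicates 1, 2 and 3 and at 70.8, 161 and 87.6 CPM in KO replicates 1, 2 and 3. The WT libraries lay close together and the KO libraries on both sides of them, for a log2 fold change of -0.14 (95% interval -0.77 to 0.49). Without KO replicate 2, the highest library, it was -0.48 with an unadjusted p below 0.05, and without KO replicate 1, the lowest, it was 0.11.

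Cxcl14, an epithelial chemokine, was at 75.8, 65.3 and 141 CPM in WT replicates 1, 2 and 3 and at 46.4, 86.9 and 49.7 CPM in KO replicates 1, 2 and 3. WT replicate 3, the library with the most hair follicle RNA, was the highest, and KO replicate 2, the next by hair follicle RNA, was the highest KO library. KO replicates 1 and 3 held more hair follicle RNA than WT replicates 1 and 2 but less Cxcl14. KO was at -0.60 against WT on the log2 scale (-1.36 to 0.17). Leaving out WT replicate 3 gave -0.26 and leaving out KO replicate 2 gave -0.88, the second with an unadjusted p below 0.05. The part of hair follicle RNA in the level of Cxcl14 was not tested.

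Cxcl16, a membrane-bound ligand of Cxcr6, was at 28.5, 24.0 and 21.8 CPM in WT replicates 1, 2 and 3 and at 30.0, 23.2 and 25.7 CPM in KO replicates 1, 2 and 3, a difference of 0.09 on the log2 scale (95% interval -0.30 to 0.47). Cx3cl1, or fractalkine, the membrane-bound ligand of Cx3cr1, was at 23.0, 24.6 and 26.9 CPM in WT replicates 1, 2 and 3 and at 21.4, 24.9 and 22.6 CPM in KO replicates 1, 2 and 3 (log2 difference -0.11, -0.44 to 0.22). The groups overlapped in both, and the spread within each genotype was small. Cxcl10, an interferon-induced ligand of Cxcr3, ranged from 0 to 3.79 CPM over the 6 libraries, with 25, 0 and 7 reads in KO replicates 1, 2 and 3. Its log2 fold change was 0.22 (95% interval -1.68 to 2.12).

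Per kilobase of exon (GENCODE M21), Cxcl14 had the highest level among the members with an exon length in WT skin (51.5 CPM per kb in WT, 33.4 in KO), and Ccl6 in KO skin (50.4 in WT, 36.5 in KO). Ccl8 followed with 39.5 CPM per kb in WT and 35.6 in KO. Ccl21a had 23.2 and 19.7 CPM per kb, Ccl7 19.5 and 13.4, Ackr3 17.6 and 12.8, Ccl9 16.8 and 16.1, and Cxcl12 13.5 and 13.0 in WT and KO respectively. The levels of Cxcl14, Ccl6 and Ccl8 differed from each other by less than the SD between WT libraries. For each of these genes the difference between WT and KO has the test given for its CPM.

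Among CXC receptors (3 of 5 tested), Cxcr4 was lower in KO skin. Cxcr4 is carried by most leukocytes and by endothelial and stem cells and signals on binding Cxcl12. The gene (chromosome 1, 128588199 to 128592299, minus strand, GRCm38) was at 10.4, 10.98 and 7.58 CPM in WT replicates 1, 2 and 3 and at 6.83, 5.04 and 3.53 CPM in KO replicates 1, 2 and 3. Every KO library was below every WT library, with WT replicate 3 and KO replicate 1 the nearest pair. Mean levels were 9.66 ± 1.82 CPM (SD, n = 3) in WT and 5.13 ± 1.65 CPM (SD, n = 3) in KO skin. The difference on the log2 scale was -0.88 (SE 0.29, 95% interval -1.55 to -0.20; limma, adjusted p = 0.998).

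Over the 15 alternative settings the log2 fold change of Cxcr4 ranged from -1.09 to -0.66, and 12 of them kept an unadjusted p below 0.05. The other 3 each left out a single library, with log2 fold changes of -0.82 without WT replicate 1, -0.78 without WT replicate 2 and -0.66 without KO replicate 3. Cxcr4 had 43 to 54 reads per WT library and 12 to 45 reads per KO library.

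Cxcr6, carried by T cells and related lymphocytes, was at 1.21, 2.85 and 2.47 CPM in WT replicates 1, 2 and 3 and at 3.64, 5.04 and 3.53 CPM in KO replicates 1, 2 and 3. The groups did not overlap, but the interval of the log2 fold change of 0.81 reached from -0.03 to 1.65. It rests on 5 to 24 reads a library. Cxcr6 overlaps Fyco1 on the opposite strand, as Ackr4 does Acad11, Cxcl16 Zmynd15, Cxcl10 Art3 and Ccl27a Il11ra1, and no source used here says whether the counting used strand.

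Ackr3, the atypical receptor that takes up Cxcl12 without G protein signalling, was the second receptor with a lower value. The gene (chromosome 1, 90203980 to 90215722, plus strand, GRCm38) was at 69.0, 63.5 and 43.9 CPM in WT replicates 1, 2 and 3 and at 45.1, 40.4 and 43.2 CPM in KO replicates 1, 2 and 3. WT replicates 1 and 2 were above all others, while WT replicate 3 lay inside the KO range. Mean levels were 58.8 ± 13.2 CPM (SD, n = 3) in WT and 42.9 ± 2.37 CPM (SD, n = 3) in KO skin. On the log2 scale this was -0.43 (SE 0.18, 95% interval -0.84 to -0.01; limma, adjusted p = 0.998).

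That value depended on the setting. An unadjusted p below 0.05 was kept in 6 of 15 alternatives, among them the fit without WT replicate 3, where the log2 fold change was -0.62. It was lost when any other library was left out, with values of -0.30 and -0.36 on leaving out WT replicate 1 or 2, and of -0.46, -0.38 and -0.43 on leaving out KO replicate 1, 2 or 3. It was also lost in limma fits with no trend, with quantile normalization, with voom weights on recovered reads and after rescaling to the median of ratios.

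Endothelial cells are a known source of Cxcr4 and Ackr3. Blood endothelial markers (6 of 6) summed to 156 to 173 CPM in WT and 110 to 182 CPM in KO libraries. Lymphatic endothelial markers (5 of 5) summed to 173 to 192 CPM in WT and 116 to 172 CPM in KO libraries, and 1 of them, the hyaluronan receptor Lyve1, had a log2 fold change of -0.53 and an unadjusted p below 0.05 (limma, adjusted p = 0.998). None of the 6 blood endothelial markers was at an unadjusted p below 0.05. Adipocyte markers (7 of 7, with Adipoq itself among them) summed to 308 to 545 CPM in WT and 144 to 442 CPM in KO libraries, with 3 of 7 lower at that level. The 3 were Fabp4, Retn and Adipoq, and Adipoq was lower by the design of the knockout. The part of these cells in the lower Cxcr4 and Ackr3 values was not tested.

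The remaining atypical receptors had intervals that included 0. Ackr4, which removes Ccl19, Ccl21 and Ccl25, was at 30.0, 60.2 and 38.4 CPM in WT replicates 1, 2 and 3 and at 40.8, 38.7 and 43.8 CPM in KO replicates 1, 2 and 3. All KO libraries lay inside the WT range, and the log2 fold change was -0.0030 (95% interval -0.55 to 0.55). Ackr2, which removes inflammatory CC chemokines, was within 7.50 to 16.3 CPM in WT and 7.43 to 12.05 CPM in KO libraries (-0.21, -0.94 to 0.53). Ackr1, the Duffy antigen of venules and red cells, was within 3.79 to 10.8 CPM in WT and 4.99 to 10.6 CPM in KO libraries (-0.18, -1.22 to 0.85).

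**Figure D4:**
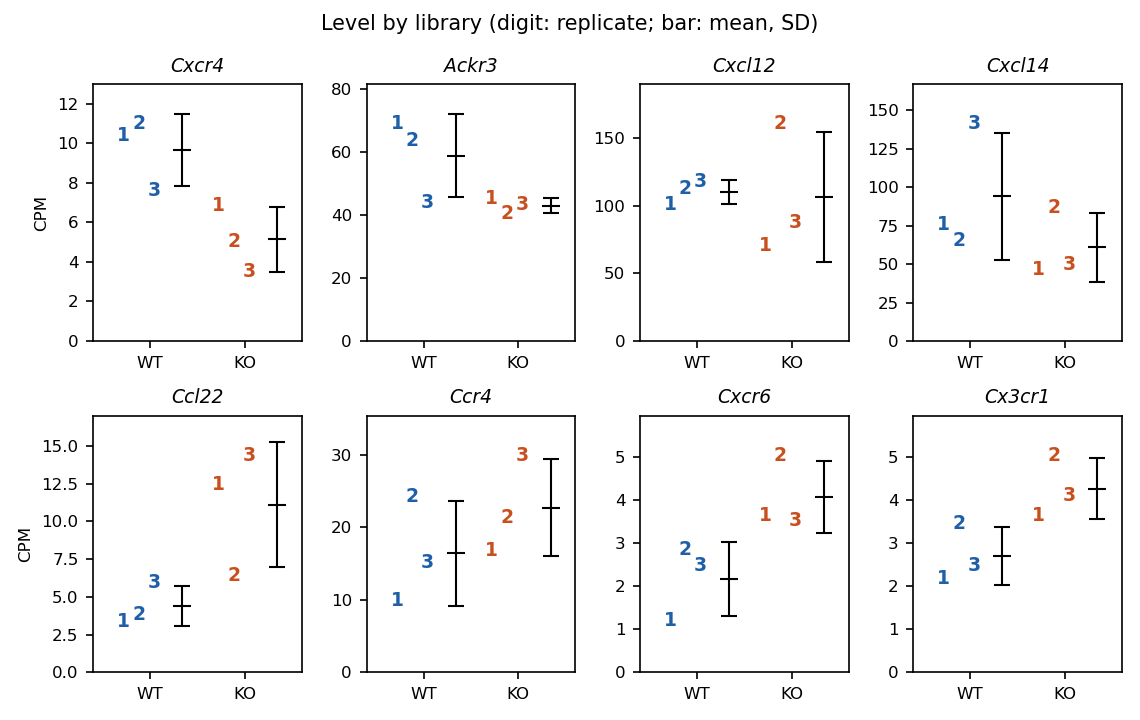
CPM (y axis, from 0) in each library of Cxcr4, Ackr3 and Cxcl12, of Cxcl14, of Ccl22 and Ccr4, and of Cxcr6 and Cx3cr1 in WT and KO skin. Digits are replicates and bars the mean with SD (n = 3): the groups are apart for Cxcr4, Ccl22, Cxcr6 and Cx3cr1 and overlap for Ackr3, Cxcl12, Cxcl14 and Ccr4.

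Of the CC receptors (5 of 8 tested), none was at an unadjusted p below 0.05. Ccr2, the receptor that brings monocytes into tissue, was at 56.0, 84.1 and 26.7 CPM in WT replicates 1, 2 and 3 and at 62.0, 88.8 and 45.2 CPM in KO replicates 1, 2 and 3. Replicate 3 was the lowest library of either genotype, and the log2 fold change was 0.32 (95% interval -0.62 to 1.27). Ccr1, carried by monocytes and neutrophils, ranged from 2.64 to 29.8 CPM in WT and 4.11 to 16.8 CPM in KO libraries (-0.03, -1.95 to 1.89).

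Macrophage and monocyte markers (12 of 12) summed to 854, 1194 and 601 CPM in WT replicates 1, 2 and 3 and to 567, 1129 and 708 CPM in KO replicates 1, 2 and 3. They were highest in WT replicate 2 and KO replicate 2, as were Ccl6, Ccl9 and Ccr2 within each genotype. Of the 10 tested inflammatory CC ligands, 8 were highest among KO libraries in replicate 2. Among WT libraries 5 of the 10, with Ccl2 and Ccl7 among them, were highest in replicate 1, as was Ccr1. The lowest KO library was replicate 1 for the marker sum but replicate 3 for Ccl6, Ccl9 and Ccr2. Not 1 of the 12 markers was at an unadjusted p below 0.05, and their median log2 fold change was -0.14. Their part in the levels of the inflammatory CC genes was not tested.

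Ccr9, the receptor of Ccl25 that marks gut-homing lymphocytes, was at 4.60, 2.64 and 2.80 CPM in WT replicates 1, 2 and 3 and at 6.22, 8.13 and 4.11 CPM in KO replicates 1, 2 and 3. Only KO replicate 3 lay inside the WT range. KO was higher by 0.78 on the log2 scale (95% interval -0.01 to 1.57), and an unadjusted p below 0.05 was reached in 6 of the 14 alternatives in which it was tested. Those included the fits without WT replicate 1 and without KO replicate 3. Cx3cr1, the fractalkine receptor of monocytes and macrophages, was at 2.18, 3.46 and 2.47 CPM in WT replicates 1, 2 and 3 and at 3.64, 5.04 and 4.11 CPM in KO replicates 1, 2 and 3. The groups did not overlap, by the margin of WT replicate 2 and KO replicate 1, and the log2 fold change was 0.58 (-0.11 to 1.28).

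Left out of the test by the filter were 13 members with means of 0.380 to 0.956 CPM, on 0 to 17 reads a library. They were the ligands Ccl17, Ccl20, Ccl25, Ccl28, Cxcl9, Cxcl13 and Xcl1 and the receptors Ccr3, Ccr7, Ccr10, Cxcr1, Cxcr3 and Xcr1. Ccr3 marks eosinophils, Ccr7 migrating dendritic cells and Xcr1 cross-presenting dendritic cells. Differences in these genes were not detectable at this depth.

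The counts of members were sensitive to single libraries. The number lower at an unadjusted p below 0.05 was 0 without WT replicate 1 and 0 without WT replicate 2, where 2.47% and 1.03% of all genes were lower at that level. Without WT replicate 3 it was 6 (Ackr3, Ccl4, Ccl6, Cxcl2, Cxcl3 and Cxcr4), beside 2.77% of all genes. Ccl4 and Cxcl3 among these passed the filter only through their WT level, which leaves the other 4. It was 1 without KO replicate 1 (Cxcr4), 3 without KO replicate 2 (Cxcl12, Cxcl14 and Cxcr4) and 1 without KO replicate 3 (Ccl21a), beside 1.403%, 2.675% and 2.11% of all genes. The number higher was 2, 3 and 1 without WT replicate 1, 2 or 3, beside 1.56%, 1.13% and 2.195% of all genes. It was 1, 1 and 2 without KO replicate 1, 2 or 3, beside 0.949%, 1.43% and 0.622% of all genes. WT replicate 3 was the lowest library for 16 of the 40 members (40%), against 18.3% of all genes, and WT replicates 1 and 2 were the highest for 11 and 12.

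Genes that act with chemokine receptors but lie outside the rule were read in the same fit. Of 39 listed symbols 37 had values and were tested, the other 2 being older names of Grk2 and Grk3. Of the 37, 1 was lower and none higher at an unadjusted p below 0.05, beside 1.82% and 1.06% of all genes. Their median log2 fold change was -0.06. Rgs2, a brake on G protein signalling, was at 28.1, 26.6 and 28.2 CPM in WT replicates 1, 2 and 3 and at 20.2, 19.9 and 14.1 CPM in KO replicates 1, 2 and 3. Each KO library was below each WT library, with a log2 fold change of -0.62 (limma, adjusted p = 0.998). Jak2 (lower in KO) and Pik3r6 (higher in KO) also had groups that did not overlap, beside 7.84% of all genes. The platelet chemokines Pf4 and Ppbp had log2 fold changes of -0.48 and -0.81, and Ccrl2 had -0.59. None of these genes was at an unadjusted p below 0.05. Platelet markers (4 of 4) summed to 54.9 to 60.5 CPM in WT and 29.7 to 57.4 CPM in KO libraries.

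Mast cell markers (7 of 7) summed to 110 to 167 CPM in WT and 88.4 to 176 CPM in KO libraries. Fibroblast markers (6 of 6) summed to 4466 to 5453 CPM in WT and 4556 to 6984 CPM in KO libraries, with 1 higher at an unadjusted p below 0.05. Skeletal muscle markers (6 of 6) summed to 2787 to 3766 CPM in WT and 1610 to 3796 CPM in KO libraries, with 1 lower. With 3 libraries against 3, an exact permutation test of a single gene cannot give a two-sided p below 0.1.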

How the data were processed

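RNA-seq of bitten ear skin was analysed for 3 WT and 3 KO mice. The authors trimmed the reads, mapped them with STAR (version 2.7.3a) to mm10 and quantified genes with the expectation-maximization algorithm of Partek Flow on Ensembl release 100. Deposited values are CPM (counts per 1000000 reads of the library), made by the authors by dividing by the library total and adding an offset of 0.0001, which was subtracted here. Neither the model the authors used for the skin libraries nor use of strand in counting is given in the sources used here. All columns of values were used.

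Depth was implied from the CPM of 1 read. In each library 91.9% to 92.6% of values under 20 reads lay within 0.1 of a whole read, so recovered reads are estimates and no count model was the main test. Ratios between libraries and floors cover counting error only.

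The 14306 genes whose mean reached 1 CPM were fitted as log2(CPM + 0.5) by genotype alone in R 4.3.3 with limma 3.58.1 (lmFit, then eBayes with trend), and two-sided p-values were adjusted by Benjamini-Hochberg over all genes tested. Fold changes on this scale understate the change of low genes. An unadjusted threshold of 0.05 was used to describe single members. The fit was tested on simulated data. Each p-value sets the difference between genotypes against the spread between these mice. That spread is moderated by a trend over all genes tested.

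Values in every library are given for members with an unadjusted p below 0.05, members whose groups did not overlap, the 12 of highest mean CPM, those the study named, and the 5 with the largest ratio among WT libraries. Other members are given by range, and 1 tested member is counted but not reported here by name. Members and gene lists were chosen with earlier results of these data known. Alternatives were pseudocounts of 0.1 and 2, no filter or a filter at 5 CPM, median of ratios, quantile normalization, no trend, limma voom on recovered reads, a replicate block, and each library left out. Exon lengths come from GENCODE M21 (51 of 53 members), gene positions from the deposited table (GRCm38) and promoters from RefSeq (GRCm38.p6).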

Additional observations from a re-analysis of the deposited data

How the results depend on the processing

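No chemokine or receptor gene passed an adjusted p below 0.05 in the 15 alternatives, where the smallest adjusted p was 0.298. The fit by limma voom on recovered reads did not call Adipoq itself (adjusted p = 0.488). The median log2 fold change of the members ranged from -0.25 to 0.19. The number lower at an unadjusted p below 0.05 (2) was 1 with rescaling by the median of ratios, with quantile normalization, without the trend and with limma voom on recovered reads, where 1.503%, 1.349%, 2.265% and 2.055% of all genes were lower at that level. The number higher (1) was 2 with a pseudocount of 2 or limma voom, 3 with median of ratios or quantile normalization and 4 without the trend. All genes higher in those fits were 1.08%, 1.13%, 1.46%, 1.62% and 1.31%, in that order. Leaving out 1 library gave 0 to 6 lower and 1 to 3 higher. The cause of these shifts was not tested.

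Of 567 log2 fold changes under an alternative, 515 kept their direction and 52, in 25 genes, reversed. Reversed values were 0.027 (median of ratios) and 0.041 (quantile) for Ackr4, -0.0071 for Ccl2 and a pseudocount of 2, -0.046 for Ccl21b (quantile), 0.42 (pseudocount 0.1) and 0.71 (voom) for Ccl3, 0.020 (quantile) and 0.31 (voom) for Ccr1, and -0.15 for Cxcl10 (pseudocount 0.1). With 1 library left out, the ranges of the genes that reversed were: Ackr1 -0.62 to 0.075, Ackr2 -0.50 to 0.032, Ackr4 -0.23 to 0.27, Ccl11 -0.28 to 0.15, Ccl12 -0.021 to 1.58, Ccl2 -0.52 to 0.41, Ccl21b -0.63 to 0.97, Ccl21c and Ccl21d -0.46 to 0.15, Ccl27a -0.14 to 0.48, Ccl27b -0.039 to 0.71, Ccl3 -1.05 to 0.90, Ccl6 -0.99 to 0.14, Ccl7 -1.14 to 0.27, Ccl8 -0.26 to 0.25, Ccl9 -0.51 to 0.43, Ccr1 -0.93 to 0.71, Ccr2 -0.12 to 0.69, Cxcl1 -1.95 to 0.19, Cxcl10 -0.42 to 1.13, Cxcl12 -0.48 to 0.11, Cxcl16 -0.012 to 0.19, Cxcl2 -2.84 to 0.27, Cxcl5 -0.54 to 1.48 and Cxcr2 -0.61 to 1.17.

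With a replicate block, 2 members were lower and 1 higher at an unadjusted p below 0.05, beside 2.894% and 1.237% of all genes. In all, 591 genes were at that level against 412 without the block. The labels do not say whether equal replicate numbers pair the mice. Deviations of same-numbered libraries correlated across genes at 0.376, -0.306 and -0.222. These deviations are from means of only 3 libraries, so they cannot decide whether mice were paired. Depth limits the members near 1 CPM, where 3 reads are 0.455 to 0.881 CPM.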
